A study of Mus musculus with 12 samples.

Results

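The Arp2/3 complex is the protein machine that starts new actin filaments as branches on the side of existing ones, and its subunits are encoded in mouse by a small set of genes. The 9 genes described here, Actr2, Actr3, Arpc1a, Arpc1b, Arpc2, Arpc3, Arpc4, Arpc5 and Arpc5l, were taken by name as the known subunit genes. They were chosen with earlier results of these data known. All 9 were among the 33560 genes with a count in these data, and all 9 passed the filter on low counts, which kept 15443 genes. Actr3b, which encodes an alternative form of the Arp3 subunit, was followed beside them as a related gene outside the set.

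Poly(A) RNA was sequenced from 12 cultures of neurons that had been differentiated in vitro from mouse embryonic stem cells and harvested at day 21. The cultures came from 6 cell lines: 3 wild-type (WT) lines and 3 knockout (KO) lines lacking a microexon of Daam1, a formin gene, per the labels. Each line gave 1 library after 2 h in water (vehicle) and 1 after 2 h in 10 µM Y-27632, a kinase inhibitor, so that each of the 4 groups (WT vehicle, KO vehicle, WT inhibitor, KO inhibitor) held 3 libraries. The text describing the series speaks of adult hippocampus whereas every sample is labelled as cultured neurons, and the sample labels were followed. The labels do not say whether a line is a single clone or how the lines are related. Gene-level counts carry no information on the microexon itself.

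In the complex, Arp2 and Arp3 resemble actin and form the start of the daughter filament, ARPC2 and ARPC4 hold the mother filament, ARPC1 takes part in binding activators, ARPC3 contacts Arp3, and ARPC5 joins ARPC1 to the rest. ARPC1 exists as ARPC1A or ARPC1B and ARPC5 as ARPC5 or ARPC5L, each complex carrying a single form of each. The complex is inactive until WASP-family proteins such as WAVE or N-WASP bind it, whereas formins such as Daam1 start unbranched filaments. In neurons branched actin is known from growth cones and dendritic spines.

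Library totals ran from 23253566 to 35012561 counts. The 3 libraries with the lowest summed level of 9 glutamatergic neuron markers were the KO inhibitor library of line 3 (467 CPM, counts per unit of library size, scaled between libraries), the WT inhibitor library of line 3 (1703 CPM) and the WT vehicle library of line 2 (1773 CPM), against 1947 to 2541 CPM in the other 9 libraries. The same 3 libraries were highest for 8 mesenchymal markers (578, 897 and 1353 CPM against 33.7 to 417 CPM), for 4 endothelial markers (165, 61.6 and 65.6 CPM against 2.46 to 21.3 CPM) and for 6 neural progenitor markers (645, 283 and 246 CPM against 35.5 to 100.1 CPM). Of the progenitor sums Vim alone held 578, 266 and 220 CPM, and Nes was also highest in these 3 libraries. Sox2, Pax6, Hes5 and Sox1 were highest in the KO inhibitor library of line 3. In the WT vehicle library of line 2 they were within the range of the other 9, at 2.10, 0.935, 1.64 and 0.312 CPM. Pax6, Hes5 and Sox1 were within it in the WT inhibitor library of line 3 too, and Sox2 was at 2.64 CPM. In the KO inhibitor library of line 3, Pdgfra alone held 509 of the 578 CPM of the mesenchymal sum. Col1a1, Dcn, Lum and Postn were at 20.3, 2.74, 0.986 and 1.97 CPM there. In that library 6 oligodendrocyte lineage markers summed to 44.5 CPM, against 15.9 to 21.8 CPM in the other 11. Of these, Olig1 was at 24.5 and Olig2 at 11.9 CPM there, while Mbp was at its lowest, 5.18 CPM. The KO inhibitor library of line 3 also had the lowest median correlation with the other libraries (0.854, Pearson's r of log2 CPM across genes, against 0.953 to 0.986). Of the markers that define the labelled cell type, Slc17a6, a vesicular glutamate transporter, averaged 301 CPM, whereas Slc17a7, Neurod6, Tbr1 and Neurod2 averaged 1.18, 0.938, 1.29 and 0.294 CPM. Tubb3, Map2 and Grin1 made the largest parts of the 9-marker sum, at 612, 557 and 452 CPM on average. Camk2a, Neurod6 and Neurod2 were highest in the WT inhibitor library of line 3, and Tbr1 in the KO inhibitor library of line 3. Of the GABAergic neuron markers, Gad1 was at 191 CPM, Gad2 at 174 CPM and Slc32a1 at 152 CPM on average. Dlx1 and Dlx2 averaged 0.662 and 0.286 CPM, and both were highest in the KO inhibitor library of line 3. The sum of 5 GABAergic markers was also lowest in the same 3 libraries, at 211, 456 and 453 CPM against 464 to 649 CPM. In the sum of 6 astrocyte markers the KO inhibitor library of line 3 alone stood out, at 1032 CPM, against 289 and 348 CPM in the other 2 and 184 to 332 CPM in the remaining 9. Slc1a2, 1 of the 6, was lowest there, at 71.3 CPM against 104 to 168 CPM. The share of counts from mitochondrial genes in that library was the lowest, at 9.96% against 13.7% to 18.5%. In bulk RNA, fewer cells of a type and less RNA per cell cannot be told apart.

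The subunit genes lie on 5 mouse chromosomes (GRCm38, GENCODE M21 annotation): Arpc2 (74236084 to 74268209, plus strand), Actr3 (125392905 to 125435727, minus) and Arpc5 (152766542 to 152775597, plus) on chromosome 1, Arpc5l on chromosome 2 (39005348 to 39015877, plus), Arpc3 (122391878 to 122414184, plus), Arpc1a (145083830 to 145108761, plus) and Arpc1b (145114215 to 145130705, plus) on chromosome 5, Arpc4 on chromosome 6 (113378115 to 113390448, plus) and Actr2 on chromosome 11 (20062304 to 20112913, minus). The ARPC1 genes are therefore neighbours on the same strand. Promoter windows of 300 bases, 250 before to 50 after the annotated start, were found for 8 of the 9 genes in a table from RefSeq (build GRCm38.p6). Bases before the start that lie in no annotated exon are shown for Arpc1a, Arpc1b and Arpc5. Of the neighbouring paralogs Arpc1a and Arpc1b, the former varied least and the latter most between libraries. Arpc5 was high in the libraries where Arpc1b was high, as were Actr3, Arpc3 and Arpc4, whose sequences are not shown. Capitals mark GGGCGG, the core of the GC box, or its reverse complement CCGCCC. The sequences, read 5′ to 3′ on the plus strand, span chr5:145083619-145083829 for Arpc1a (211 bases), chr5:145114006-145114214 for Arpc1b (209 bases) and chr1:152766352-152766541 for Arpc5 (190 bases).
Arpc1a: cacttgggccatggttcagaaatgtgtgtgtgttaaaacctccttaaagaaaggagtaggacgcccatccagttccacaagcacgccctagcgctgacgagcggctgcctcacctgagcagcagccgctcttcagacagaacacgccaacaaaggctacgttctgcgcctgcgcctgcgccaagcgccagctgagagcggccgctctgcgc
Arpc1b: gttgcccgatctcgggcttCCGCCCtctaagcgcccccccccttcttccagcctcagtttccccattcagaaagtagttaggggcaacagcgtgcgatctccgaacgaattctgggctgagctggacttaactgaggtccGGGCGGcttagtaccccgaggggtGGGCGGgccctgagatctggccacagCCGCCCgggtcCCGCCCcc
Arpc5: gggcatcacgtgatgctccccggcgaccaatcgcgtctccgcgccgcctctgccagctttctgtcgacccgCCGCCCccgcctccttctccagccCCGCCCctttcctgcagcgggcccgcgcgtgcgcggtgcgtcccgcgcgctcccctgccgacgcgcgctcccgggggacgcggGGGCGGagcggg
GGGCGG, searched on both strands, occurred 7 times in the window of Arpc1b (5 of them in the bases shown), 3 times in that of Arpc5 and 0 times in that of Arpc1a. Over all 32851 windows of the table, 35.7% held this motif. The window of Arpc1a was 63.0% G or C with 26 CpG, that of Arpc1b 69.3% with 29 CpG, and that of Arpc5 73.7% with 41 CpG, against medians of 52.7% and 7 CpG over the table. Actr2, Actr3, Arpc2 and Arpc3 held 5, 1, 3 and 2 copies of GGGCGG, and Arpc4 held 0. Motifs of factors that respond to actin were also searched on both strands: the CArG box, bound by serum response factor, occurred in the window of Arpc4 alone among the 8 (1.63% of all windows), and GGAATG, bound by TEAD factors, in that of Arpc2 alone (14.7% of all windows). TATAAA was in none of the 8 windows (13.6% of all windows). A match describes the letters of a window and not a site in use.

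Levels were compared between genes on the authors' cRPKM scale, which divides reads by gene length and library size. The deposited length was recovered as the ratio of count to cRPKM. For Actr3, Arpc1a, Arpc2, Arpc3, Arpc4 and Arpc5l it equalled the number of 50-nt start positions of the longest coding transcript, at 2516, 1583, 1390, 850, 2221 and 1290. The lengths of Arpc1b (2995 of 3056 positions) and Arpc5 (1620 of 1865) were below that number. Actr2 was the exception: its length was 403, or 11.1% of its single coding transcript of 3631 nt, and equalled the start positions of an annotated transcript with a retained intron, 452 nt long with 2 exons (chromosome 11, 20100587 to 20112909), of which 216 nt lie in coding exons and 236 nt in an intron. The deposited length of Actr2 is thus that of this short transcript, and its level is not on a scale shared with the other subunits.

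Arpc2 had the highest level of the subunit genes, at 131 ± 22.6 cRPKM (mean ± SD over 12 libraries). Actr3 followed at 83.8 ± 15.6, Arpc3 at 75.3 ± 11.2 and Arpc1a at 73.7 ± 3.49 cRPKM. Arpc5l (49.8 ± 4.31), Arpc4 (46.9 ± 7.86) and Arpc5 (45.8 ± 16.8 cRPKM) formed the next set. Actr2, with its short counted length, stood at 9.0 ± 2.38 and Arpc1b at 3.52 ± 5.61 cRPKM. Along this order the ranges of neighbours overlapped, except between Arpc1a (67.7 to 78.7 cRPKM) and Arpc5l (40.9 to 55.3 cRPKM) and between Arpc5 (34.9 to 97.2 cRPKM) and Actr2 (2.65 to 11.5 cRPKM). Because Actr2 is not on the shared scale, its place in the order and its distance from Arpc5 do not compare levels. Within libraries Arpc2 exceeded Actr3 in 12 of 12, while Arpc3 exceeded Arpc1a in 4 of 12. Without the inhibitor library of KO line 3 the order was the same apart from Arpc3 and Arpc1a, which swapped places. Summed by position in the complex, the Arp3 genes Actr3 and Actr3b gave 97.5 cRPKM, the ARPC1 genes 77.2 ± 4.14 and the ARPC5 genes 95.6 ± 19.0 cRPKM.

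**Figure D1:**
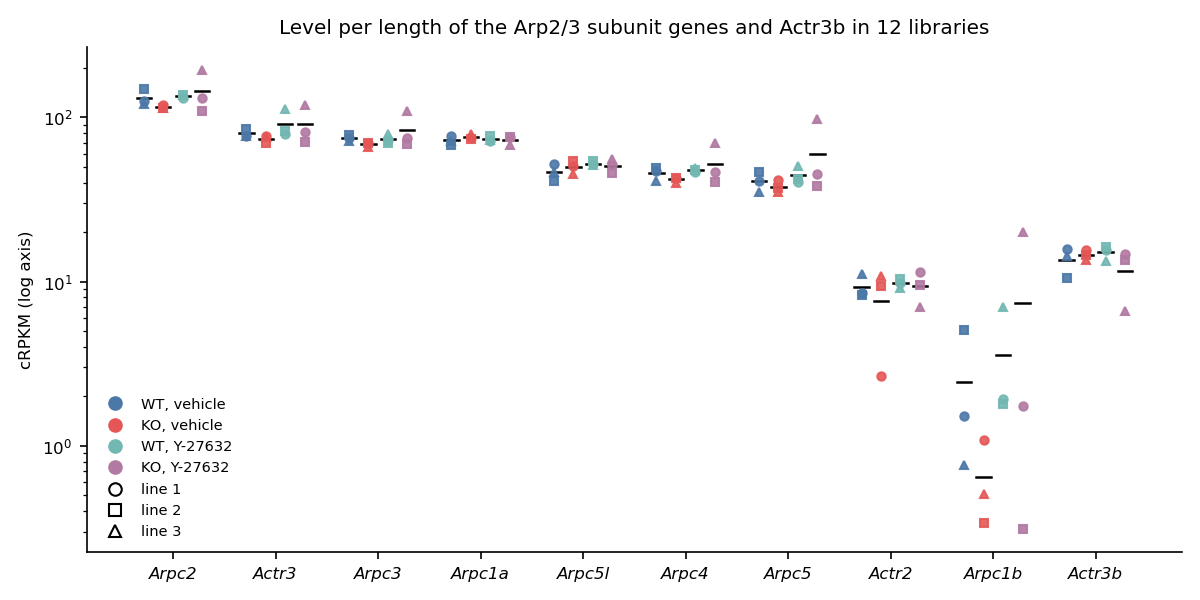
Level per length (cRPKM, log axis) of the 9 subunit genes, ordered by mean, and of Actr3b in 12 libraries; colour gives the group, marker shape the line and the short bar the group mean (n = 3). Arpc2 leads at 131 cRPKM on average, and Arpc1b spans 0.310 to 20.1 cRPKM, with the KO inhibitor library of line 3 at the top.

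Variation between libraries was compared on the CPM scale. Arpc1a and Arpc5l varied least, with coefficients of variation of 5.93% and 7.65% over 12 libraries. Arpc1b varied most, at 154%, and 106% without the inhibitor library of KO line 3. The other coefficients were 12.5% for Arpc3, 14.6% for Arpc4, 15.3% for Arpc2, 17.1% for Actr3, 26.6% for Actr2 and 33.5% for Arpc5, the last falling to 12.2% without that library. The median over the 9691 tested genes with a mean of at least 10 CPM was 17.6%, and 10.3% without that library. Of those genes 119, or 1.23%, had a larger coefficient than Arpc1b.

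Of the genes for the actin-like subunits, Actr3, which encodes Arp3, was at 189, 219 and 191 CPM in WT vehicle (lines 1 to 3), 198, 176 and 195 CPM in KO vehicle, 198, 209 and 284 CPM in WT inhibitor and 203, 181 and 283 CPM in KO inhibitor. Both line 3 inhibitor libraries were high, the remaining values lay close together, and the groups of each comparison overlapped. Of the 50-nt stretches of Actr3, 49.8% also occur in the transcripts of the annotated copies Gm8822 and Gm15899, neither of which had a count, so that Actr3 is uncertain to that extent. Actr2, which encodes Arp2, held between 30 and 147 counts per library. Its levels were 3.34, 3.43 and 4.41 CPM in WT vehicle, 1.10, 3.81 and 4.47 CPM in KO vehicle, 3.91, 4.23 and 3.70 CPM in WT inhibitor and 4.59, 3.87 and 2.67 CPM in KO inhibitor. The KO vehicle library of line 1 was the lowest and the groups of each comparison overlapped.

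Arpc2 and Arpc4 encode the pair of subunits that form the core of the complex. Arpc2 was at 170, 212 and 164 CPM in WT vehicle, 170, 160 and 162 CPM in KO vehicle, 180, 191 and 190 CPM in WT inhibitor and 181, 153 and 254 CPM in KO inhibitor. Arpc4 was at 101, 113 and 89.4 CPM, then 97.4, 95.8 and 90.5 CPM, then 103, 107 and 110 CPM, and 103, 91.2 and 145 CPM in the same order of groups. Arpc3, whose product contacts Arp3, was at 61.9, 68.2 and 60.0 CPM, then 60.8, 59.8 and 57.5 CPM, then 61.5, 59.8 and 68.1 CPM, and 62.7, 59.0 and 87.0 CPM. For all 3 genes the KO inhibitor library of line 3 was the highest, the WT vehicle library of line 2 was above the other WT vehicle libraries, and the groups of each comparison overlapped. Arpc4 shares 10.5% of its 50-nt stretches with Ttll3, an overlapping gene on the same strand at 3.64 CPM on average.

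The ARPC1 position showed the sharpest contrast between paralogs. Arpc1a was nearly level, at 119, 111 and 112 CPM in WT vehicle, 122, 118 and 127 CPM in KO vehicle, 113, 123 and 116 CPM in WT inhibitor and 119, 121 and 101 CPM in KO inhibitor. Arpc1b was at 4.41, 15.7 and 2.22 CPM in WT vehicle, 3.33, 1.04 and 1.57 CPM in KO vehicle, 5.78, 5.43 and 21.1 CPM in WT inhibitor and 5.22, 0.954 and 56.8 CPM in KO inhibitor. The 3 libraries set apart above by their markers held the 3 highest values of Arpc1b, in 3 different groups, and the groups of each comparison overlapped. The same libraries held the lowest value of Arpc1a (101 CPM) and the next lowest (111 CPM), while the third stood at 116 CPM. In counts, Arpc1b ranged from 24 to 1787 per library. Some of these counts are uncertain, since 42.2% of its 50-nt stretches also occur elsewhere, mostly in Pdap1, which overlaps Arpc1b on the opposite strand; the libraries were strand-specific, per the labels, but whether strand was used in counting is not stated. Pdap1 was at 131 CPM on average (103 to 147 CPM) and lowest in the KO inhibitor library of line 3, where Arpc1b was highest.

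At the ARPC5 position, Arpc5 was at 64.8, 77.8 and 56.1 CPM in WT vehicle, 69.3, 60.2 and 57.8 CPM in KO vehicle, 65.3, 69.0 and 82.2 CPM in WT inhibitor and 72.4, 62.2 and 148 CPM in KO inhibitor. Its paralog Arpc5l was at 65.5, 54.4 and 59.1 CPM, then 67.0, 70.1 and 59.5 CPM, then 66.6, 70.4 and 66.1 CPM, and 65.3, 59.8 and 67.2 CPM in the same order. Arpc5 was thus highest in the KO inhibitor library of line 3, whereas Arpc5l was within the range of the others there and lowest in the WT vehicle library of line 2. Arpc5l was the only subunit gene whose groups separated in any of the 4 pairwise comparisons. Its WT inhibitor libraries (66.1 to 70.4 CPM) lay just above its WT vehicle libraries (54.4 to 65.5 CPM). In that comparison 5.97% of all genes tested separated, in either direction. Actr3b was at 30.3, 21.6 and 27.8 CPM in WT vehicle, 31.9, 29.1 and 27.4 CPM in KO vehicle, 30.8, 32.5 and 26.5 CPM in WT inhibitor and 28.9, 27.0 and 12.4 CPM in KO inhibitor. The lowest 3 values of Actr3b were in the 3 libraries set apart by their markers, where the highest 3 values of Actr3 lay.

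**Figure D2:**
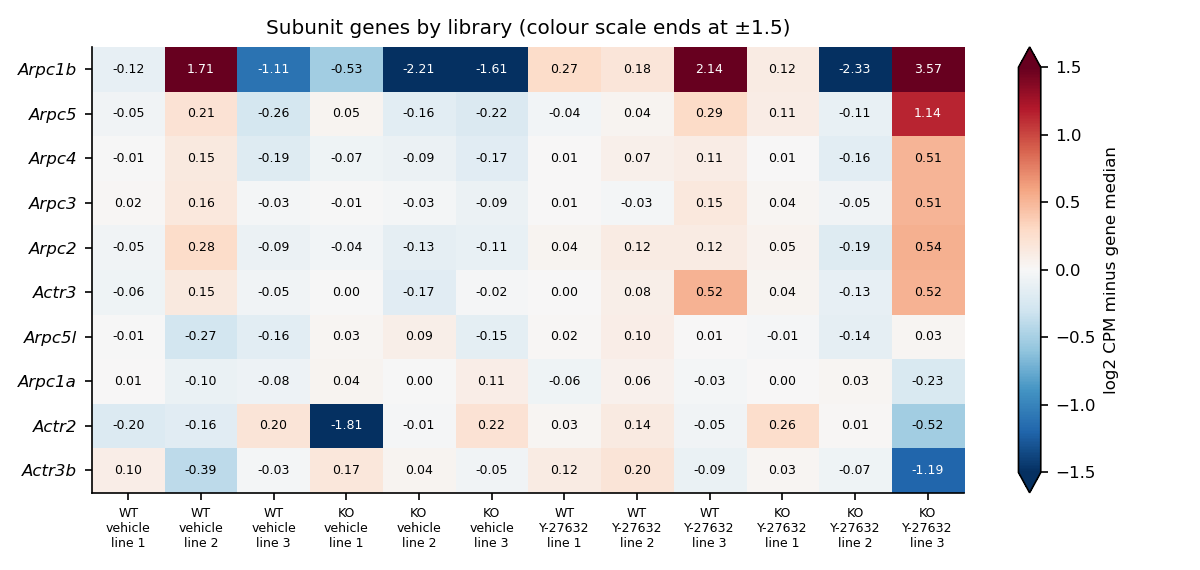
Log2 CPM of each subunit gene and Actr3b minus the median of that gene over 12 libraries, by group and line; the colour scale ends at 1.5 in either direction and the number in each cell is the value. The KO inhibitor library of line 3 is the highest of the 12 for Arpc1b, Arpc2, Arpc3, Arpc4 and Arpc5 and the lowest for Arpc1a and Actr3b.

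Because a complex holds a single form at each position, the share of a paralog in its pair was taken from cRPKM within each library, which does not depend on scaling between libraries. Arpc1b made up 1.92%, 6.96% and 1.04% of Arpc1a plus Arpc1b in WT vehicle, 1.42%, 0.457% and 0.644% in KO vehicle, 2.63%, 2.27% and 8.82% in WT inhibitor and 2.28%, 0.409% and 22.9% in KO inhibitor. Arpc1a was thus the major form in every library. Arpc5l made up 55.9%, 46.8% and 56.9% of the ARPC5 pair in WT vehicle, 54.8%, 59.4% and 56.4% in KO vehicle, 56.1%, 56.2% and 50.2% in WT inhibitor and 53.1%, 54.7% and 36.3% in KO inhibitor. It was the larger part in 10 of 12 libraries, and the smaller in WT line 2 with vehicle and KO line 3 with inhibitor. Actr3b made up 5.27% to 17.4% of the Arp3 pair, and its 3 lowest shares (5.27%, 10.6% and 11.1%) were in the 3 libraries set apart by their markers.

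No difference in share between genotypes or treatments passed a test over lines. For KO minus WT over line means (3 against 3), the differences were 0.75 percentage points for Arpc1b, -1.25 for Arpc5l and -0.18 for Actr3b, with two-sided exact permutation p-values of 1.0, 0.9 and 0.9; the smallest p this design allows is 0.1. For inhibitor minus vehicle within lines (6 pairs), the differences were 4.48, -3.94 and -2.18 points, higher in 4, 2 and 1 of 6 lines, with exact sign-flip p-values of 0.312, 0.438 and 0.312. The smallest p that sign flips over 6 lines allow is 0.031. After Benjamini-Hochberg adjustment over these 6 tests the p-values were 1.0 for genotype and 0.875 for inhibitor. With these smallest values, no adjusted p could fall below 0.05 whatever the shares, so the tests do not decide whether the shares differ. Without KO line 3 the genotype differences changed sign, to -2.80, 1.81 and 1.88 points, and the inhibitor differences were 0.920, -0.700 and -0.644 points.

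**Figure D3:**
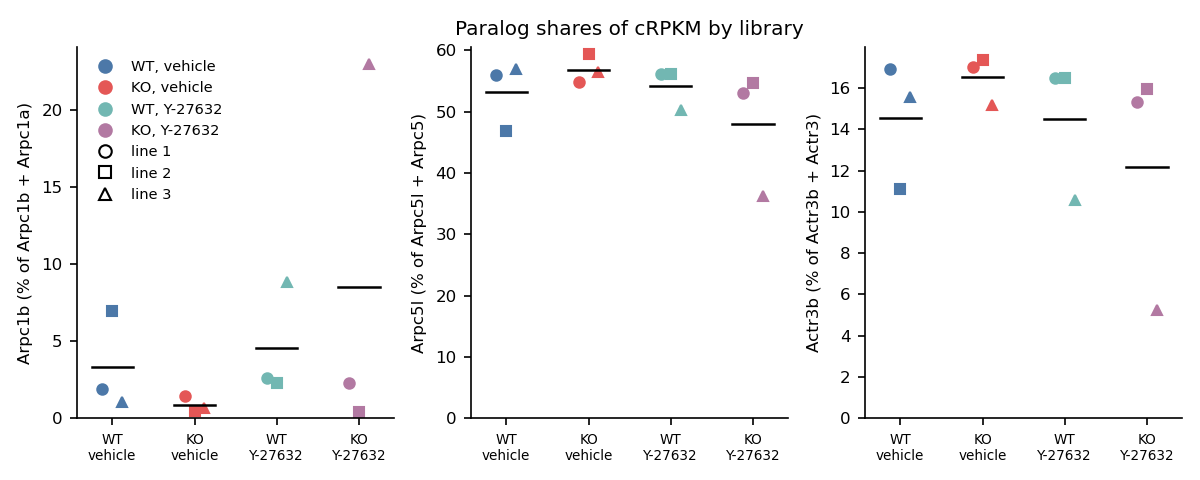
Share of Arpc1b in the ARPC1 pair, of Arpc5l in the ARPC5 pair and of Actr3b in the Arp3 pair (percent of cRPKM) in 12 libraries, by group; marker shape gives the line and bars the group mean (n = 3). The KO inhibitor library of line 3 stands apart in each panel, at 22.9%, 36.3% and 5.27%.

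The effect of the microexon deletion was first read in vehicle. Arpc1b averaged 7.43 ± 7.21 CPM in WT libraries and 1.98 ± 1.2 CPM in KO libraries (SD, n = 3 each), a log2 change of -1.90 ± 1.30 (SE), which did not pass. Changes of the other 8 genes lay between -0.25 and 0.14, among them Arpc1a at 0.10 ± 0.10 and Arpc5l at 0.14 ± 0.10. With edgeR, 0 of 9 subunit genes passed an adjusted p of 0.05 (0% of all genes tested) and 0 of 9 had an unadjusted p below 0.05 (1.99% of all genes), and DESeq2 and limma called 0 of 9 as well. All 9 shared an edgeR adjusted p of 0.999. Their median change was -0.09, beside -0.010 over all genes, and 2 of 9 were positive; without the WT vehicle library of line 2 it was -0.016, and without the 3 libraries set apart -0.010. KO and WT libraries overlapped for 9 of 9 genes, where 12.5% of all genes tested did not overlap. The Arpc1b change was smaller without the WT vehicle library of line 2, at -0.74, and -0.73 without the 3 libraries set apart. The mesenchymal marker sum in these groups was 127 to 1353 CPM in WT and 33.7 to 120 CPM in KO vehicle libraries, with all 8 markers above 0, and its part in the result was not tested.

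In neurons given the inhibitor, the genotype difference of Arpc1b had the opposite sign. The WT libraries averaged 10.8 ± 8.98 CPM and the KO libraries 21 ± 31.1 CPM, so that the change was 0.96 ± 1.25, and was -0.83 without the 3 libraries set apart and -1.81 without the KO library of line 3 alone. The value for Arpc5 was 0.39 ± 0.29, and -0.10 without that KO library. The remaining 7 changes lay between -0.09 and 0.14. Again 0 of 9 genes passed (0% of all genes; edgeR adjusted p of 0.856 to 0.952) and 0 had an unadjusted p below 0.05 (3.5% of all genes), with 0 called by DESeq2 or limma. The groups overlapped for 9 of 9 genes (10.5% of all genes did not overlap), 5 of 9 changes were positive and the median was 0.07, beside -0.00050 over all genes. Without the inhibitor library of KO line 3 the median was -0.11 with 2 of 9 positive.

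Counts of each line were summed over its 2 libraries to compare genotypes over both treatments. No subunit gene of 9 passed (0% of 16090 genes; edgeR adjusted p of 0.998), and 0 had an unadjusted p below 0.05 (2.65% of all genes). DESeq2 and limma called 0 of 9. The log2 change of Arpc1b was 0.48 ± 1.16, and -1.75 without KO line 3. The other 8 changes lay between -0.13 and 0.24, the largest being Arpc5 at 0.24 ± 0.21, which became -0.05 without KO line 3. The median was 0.044, beside 0.045 over all genes, with 7 of 9 positive, and -0.092 with 2 of 9 positive without KO line 3.

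The response to the inhibitor was then compared in WT neurons. Arpc5l averaged 59.7 ± 5.56 CPM in vehicle and 67.7 ± 2.33 CPM in inhibitor (SD, n = 3 each), higher with inhibitor in 3 of 3 lines, a log2 change of 0.18 ± 0.10. The value was 0.54 ± 1.24 for Arpc1b and 0.21 ± 0.19 for Actr3, and -0.40 and 0.028 without the WT inhibitor library of line 3. Without the WT vehicle library of line 2 Arpc1b was at 1.67. None passed: 0 of 9 had an edgeR adjusted p below 0.05 (0% of all genes; 1.00 for each) and 0 had an unadjusted p below 0.05 (0.304% of all genes), with 0 called by DESeq2 or limma. Arpc5l alone among the 9 had groups that did not overlap, as 5.97% of all genes tested did. Without the WT vehicle library of line 2, which held its lowest value, the change of Arpc5l was 0.09, and its unadjusted edgeR p was 0.104 with all libraries. Of the 9 changes 8 were positive, with a median of 0.08 beside 0.011 over all genes, and of 0.030 without the WT inhibitor library of line 3.

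In KO neurons the inhibitor comparison gave the largest values. Arpc1b averaged 1.98 ± 1.2 CPM in vehicle and 21 ± 31.1 CPM in inhibitor, a log2 change of 3.4 ± 1.37, with an unadjusted edgeR p of 0.033 and an adjusted p of 0.474. Line by line, the difference in its log2 CPM was 0.64, -0.11 and 5.12 in lines 1 to 3. Arpc5, at 62.4 ± 6.10 CPM in vehicle and 94.3 ± 47.1 CPM in inhibitor, had a log2 change of 0.59 ± 0.29, and differences of 0.06, 0.05 and 1.36 in the 3 lines. Actr3, Arpc2, Arpc3 and Arpc4 had changes of 0.23 to 0.26 and Arpc1a of -0.11 ± 0.10. The edgeR adjusted p passed for 0 of 9 genes (0% of all genes; 0.474 to 0.842), 1 of 9 had an unadjusted p below 0.05 (7.05% of all genes), and DESeq2 and limma called 0. The groups overlapped for 9 of 9 genes, where 8.84% of all genes did not.

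These KO values rested on the inhibitor library of line 3. Without it the log2 change was 0.63 ± 1.02 for Arpc1b and 0.11 ± 0.15 for Arpc5, with edgeR adjusted p of 1.00 for both. The median of the 9 genes was 0.25 with it and 0.04 without it, and 7 of 9 were positive in either case; the median over all genes was -0.018 with it. In that library the 6 astrocyte markers summed to 1032 CPM, with Gfap at 598 and Slc1a3 at 272 CPM, against 209 to 251 CPM in the other 5 KO libraries. Slc1a2, another of the 6, was at its lowest of the 12 libraries there, at 71.3 CPM. The 4 endothelial markers summed to 165 CPM and the 6 progenitor markers to 645 CPM, against 2.46 to 21.3 CPM and 38.7 to 100.1 CPM. The mitochondrial share was 9.96% there and 13.7% to 18.5% in the other 5. Their part in the result was not tested.

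An interaction term tested the difference between the inhibitor response of KO and that of WT neurons. The value was 2.86 ± 1.80 for Arpc1b and 0.47 ± 0.41 for Arpc5, and the remaining 7 lay between -0.21 and 0.23. None passed (0 of 9 and 0% of all genes; edgeR adjusted p of 0.808 to 0.971), 0 had an unadjusted p below 0.05 (1.2% of all genes), and DESeq2 and limma called 0. Without the inhibitor library of KO line 3 the value of Arpc1b was 0.09, and without all 3 libraries set apart it was -0.10. The median over the 9 genes was 0.18 with all libraries, beside -0.0097 over all genes, and -0.02 without the inhibitor library of KO line 3.

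**Figure D4:**
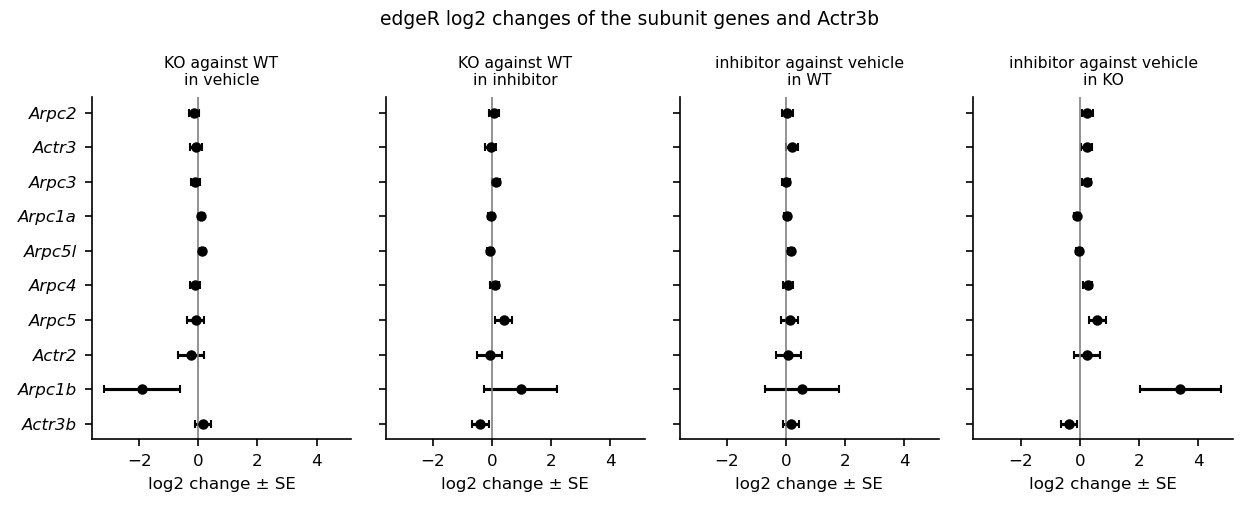
Log2 changes from edgeR (points) with their standard errors (bars) for the 9 subunit genes and Actr3b in the 4 pairwise comparisons of 3 against 3 libraries. Arpc1b has the widest errors, from -1.90 ± 1.30 for KO against WT in vehicle to 3.4 ± 1.37 for inhibitor against vehicle in KO, and no gene passed an adjusted p of 0.05.

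The errors show what the fit of all 12 libraries, which share 1 estimate of the spread, could resolve. For Arpc1a, KO against WT in vehicle was a 1.07-fold change with an interval of 2 standard errors from 0.935 to 1.23, and for Arpc5l a 1.10-fold change from 0.954 to 1.26. For Arpc5 the interval was wider, from 0.632 to 1.41. For Arpc1b it ran from 0.0443 to 1.62. The gene-wise biological coefficient of variation from edgeR was 0.134 for Arpc1a and 0.137 for Arpc5l, and 0.969 for Arpc1b, beside a common value of 0.411. Through the shared spread, the inhibitor library of KO line 3 also entered the errors in vehicle. Without that library the standard error for KO against WT in vehicle was 0.061 for Arpc1a, against 0.099 with it. The standard error was 0.088 against 0.102 for Arpc5l, 0.137 against 0.288 for Arpc5 and 0.945 against 1.30 for Arpc1b.

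Regulators of the complex and other actin genes were read from lists of known members. None of the 55 list genes tested (56 for the line sums) passed in any of the 6 comparisons, with edgeR adjusted p of at least 0.474, and 1 gene in 1 comparison, inhibitor against vehicle in KO, had an unadjusted p below 0.05 (1 of 55, where the share over all genes was 7.05%, and 0% after adjustment). That gene was the formin gene Fhod1, with a log2 change of 2.64 ± 1.14 (edgeR unadjusted p of 0.043, adjusted p of 0.474), and of 0.0041 ± 0.72 without the inhibitor library of KO line 3. Of 11 genes of the WAVE complex, which activates Arp2/3 downstream of Rac, 10 were tested, and in that comparison 3 were positive and 7 negative with a median of -0.11, against 6 positive and a median of 0.0046 without that library. The WAVE genes with the highest level, Nckap1 and Cyfip2, were at 86.9 ± 8.64 and 75.1 ± 17.1 cRPKM; Cyfip2 was at 23.7 cRPKM in the KO inhibitor library of line 3 and 70.9 to 91.2 cRPKM in the other 11.

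Among N-WASP, its partners and other activators, 9 of 11 genes were tested, with 6 positive and 3 negative and a median of 0.10 for inhibitor against vehicle in KO. Cttn, whose product cortactin stabilises branches, was at 60.5 ± 12.9 cRPKM and highest in the KO inhibitor library of line 3 (98.4, against 49.2 to 67.5 in the other 11). Wasl, which encodes N-WASP, was at 22.0 ± 2.14 cRPKM. The WASH complex, which activates Arp2/3 on endosomes, had 4 of 5 genes positive (median 0.23), with Washc2 at 22.2 ± 4.58 and Washc1 at 14.1 ± 0.871 cRPKM. Genes that inhibit the complex or remove branches had 2 of 10 positive and 8 negative (median -0.25). The highest of them, Gmfb, a debranching factor, was at 65.3 ± 8.20 and Coro1c, a coronin, at 43.7 ± 3.31 cRPKM, and both were lowest in the KO inhibitor library of line 3, at 46.5 and 34.7 cRPKM.

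Of the 15 formin genes, 10 were positive and 5 negative in that comparison (median 0.34). Daam1 was the formin gene with the highest level, at 26.4 ± 5.22 cRPKM, followed by Fhod3 at 18.8 ± 4.01 cRPKM. Daam1 was at 12.1 cRPKM in the KO inhibitor library of line 3 against 22.2 to 31.3 in the other 11, while Fhod3 was at 31.2 against 15.7 to 19.1 cRPKM. Actin itself was far above its nucleators, with Actg1 at 1138 ± 149 and Actb at 531 ± 80.8 cRPKM, and 4 of 5 genes of actin and capping protein were positive (median 0.20). For comparison, the median over all genes was -0.018. Without the inhibitor library of KO line 3 the medians were -0.027 for N-WASP and other activators (3 of 9 positive), -0.081 for WASH (2 of 5), -0.058 for inhibitors and branch removal (4 of 10), 0.039 for formins (10 of 15) and 0.033 for actin and capping protein (4 of 5). In the comparisons that do not use that library, formins had medians of -0.18 for KO against WT in vehicle (4 of 15 positive) and -0.028 for the inhibitor in WT (6 of 15). The other lists had medians of -0.038 to 0.071 and -0.050 to 0.032 in these comparisons. Without the 3 libraries set apart, the formin medians were -0.065 (4 of 15 positive) and 0.018 (8 of 15).

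Among themselves, 6 of the 9 subunit genes followed each other over the libraries. This set of Actr3, Arpc1b, Arpc2, Arpc3, Arpc4 and Arpc5 was chosen after the values were seen, and the correlations share the depth and makeup of each library. The 15 pairs within it had Pearson's r of log2 CPM from 0.815 to 0.972 over 12 libraries, from 0.675 to 0.923 over the 11 without the inhibitor library of KO line 3, and from 0.281 to 0.916 over the 9 without the 3 libraries set apart. The other 21 pairs had a median of -0.17, -0.11 and 0.00040 over 12, 11 and 9 libraries, beside 0.914, 0.851 and 0.701 within the set. Their r ran from -0.859 to 0.239, from -0.645 to 0.320 and from -0.515 to 0.795. Over the 9 libraries the pairs within and outside the set therefore overlapped. The highest pair outside was Arpc4 with Arpc5l (0.795), and the lowest within was Actr3 with Arpc3 (0.281).

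Among 9683 genes with a mean of at least 10 CPM, the 5 whose profile was most like that of Arpc1b included S100a10 (r of 0.997 over 12 libraries), Oaf (0.994), Tnfrsf1a (0.993) and Eif4ebp1 (0.991). Of these 5, 4 were also among the top 5 over 11 libraries. S100a10 was at 87.1 CPM in the KO inhibitor library of line 3 and at 2.00 to 36.1 CPM in the other 11. Most like the mean profile of the 9 subunit genes were Klf16, Llph, Nhp2, Ftsj3 and Foxo4 (r of 0.980 to 0.982), of which 2 were among the top 5 over 11 libraries. That mean was taken over log2 CPM centred by gene but not scaled, so that Arpc1b, the most variable gene, weighs most in it.

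Arpc1b and the marker lists were set side by side by library. Its 3 highest values, 56.8, 21.1 and 15.7 CPM, fell in the libraries with the 3 highest sums of mesenchymal markers, although in another order (578, 897 and 1353 CPM), and of endothelial markers (165, 61.6 and 65.6 CPM). Its lowest value, 0.954 CPM, fell in the KO inhibitor library of line 2, with the lowest endothelial sum, 2.46 CPM. Of the endothelial markers, Pecam1 did not follow Arpc1b: it was lowest, at 0.254 CPM, in the KO inhibitor library of line 3, where Tek was at 131 and Cdh5 at 26.6 CPM. Of the mesenchymal markers, Pdgfra was at 509 CPM in that library, but Col1a1 was at 20.3 and Postn at 1.97 CPM, with Postn at its lowest there. Markers of blood cells and microglia, which are known to rely on ARPC1B, were near 0: the 7 markers summed to 0.519 to 13.3 CPM, and Tyrobp was at 0 in every library. The highest sum was again in the KO inhibitor library of line 3, with Csf1r at 12.9 CPM. The astrocyte sum was highest, at 1032 CPM, in the library with the most Arpc1b, but in the library next in Arpc1b it was 289 CPM, below the 332 CPM of the WT vehicle library of line 1. Of the astrocyte markers, Slc1a2 was lowest in the library with the most Arpc1b, at 71.3 CPM. Whether any of these cells contributed to the level of Arpc1b was not tested.

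**Figure D5:**
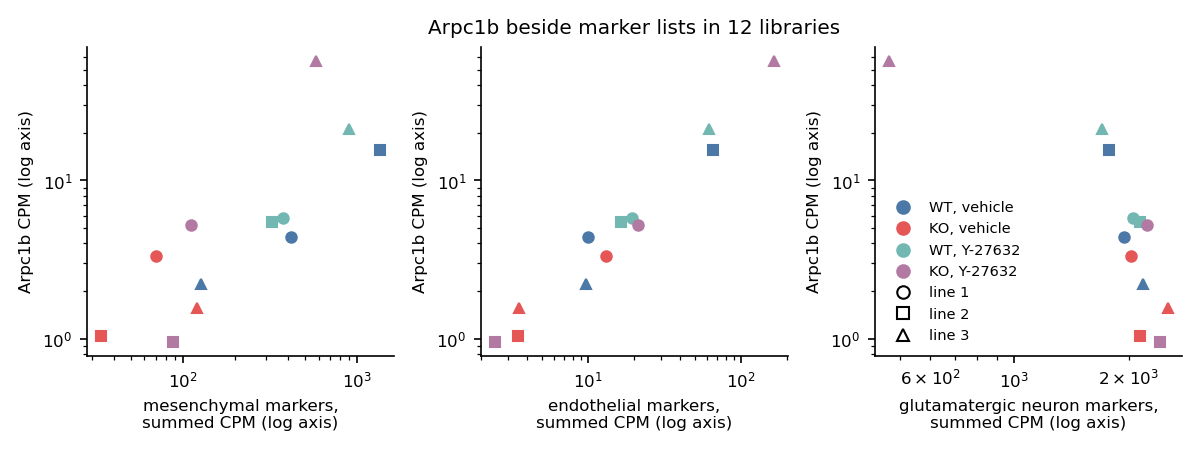
Arpc1b (CPM, log axis) against the summed CPM of 8 mesenchymal, 4 endothelial and 9 glutamatergic neuron markers (log axes) in 12 libraries; colour gives the group and shape the line. Arpc1b is highest, at 56.8 CPM, where the endothelial sum is highest (165 CPM) and the glutamatergic sum lowest (467 CPM).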

How the data were processed

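Each library came with a table of 36902 Ensembl genes holding a read count and a cRPKM. Counts are whole numbers deposited by the authors without normalization; 3342 genes were NA. The cRPKM values deposited by the authors are RPKM, reads per length and library size, with a correction whose nature is not given in the sources used here. The genome build was mm10, per the submitters' processing notes; the aligner, annotation and use of strand in counting are not given in the sources used here. Identifiers were matched to gene symbols through a reference table (33371 matched).

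Counts were tested with edgeR 4.0.16 (R 4.3.3): TMM factors, filterByExpr, a robust quasi-likelihood fit of all 12 libraries with 1 coefficient per group, and Benjamini-Hochberg adjustment over all genes tested. CPM values use the TMM factors. Alternatives were DESeq2 1.42.0, limma 3.58.1 on log2(cRPKM + 0.1), other scalings, no filter, the line as a block, each library left out, and the 3 libraries set apart left out. The procedure was tested on simulated counts of 15443 genes for KO against WT in vehicle, with 50 genes changed at each size. It recovered 10%, 52%, 86% and 90% of genes changed by a log2 of 1, 2, 3 and 4, with 7 false calls. Most changes of a log2 of 1 were thus missed among these genes, which were drawn at random, each with its own spread. The gene-wise coefficients of the subunit genes ran from 0.134 (Arpc1a) to 0.969 (Arpc1b), so these rates do not describe each of them. Standard errors are the log2 change divided by the square root of F.

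The members and gene lists were chosen with earlier results of these data known. Genes named are the 9 subunit genes, Actr3b and Daam1, the 2 genes of each list with the highest mean cRPKM, and the 5 genes most correlated with Arpc1b, the most variable member, and with the members' mean; Fhod1 was named after its values were seen, and 1 gene chosen by the rule is not reported here. Vehicle and inhibitor libraries are paired by the cell line in the labels, but their deviations from the group means correlated at 0.41, -0.55 and -0.72 in WT lines and -0.19, 0.57 and -0.37 in KO lines (r across 15443 genes). WT and KO lines share only a number. The labels name separate lines, but nothing says that the cultures were independent beyond that, so p-values measure the spread between these libraries.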

Additional observations from a re-analysis of the deposited data

How the results depend on the processing

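No alternative brought a subunit gene past an adjusted p of 0.05 in any comparison. Over all genes, where edgeR called 0, DESeq2 called 11 for KO against WT in vehicle, 18 for KO against WT in inhibitor and 87 over line sums. Leaving out the 3 libraries set apart gave 2 calls in vehicle and 1 in inhibitor, and using no filter gave 2 over line sums. The causes were not tested. Of 66 log2 changes, 29 kept their sign under every alternative, and the lowest adjusted p among the changes that reversed was 0.424.

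Without the 3 libraries set apart, Arpc5 was 0.049 for KO against WT in vehicle. For KO against WT in inhibitor Actr2 was 0.096, Arpc1a 0.059, Arpc1b -0.83, Arpc2 -0.11, Arpc4 -0.077 and Daam1 0.12, and Daam1 was 0.11 for inhibitor against vehicle in KO. The interaction was -0.041 for Actr3, -0.099 for Arpc1b, -0.089 for Arpc2, -0.067 for Arpc4, -0.0073 for Arpc5 and 0.18 for Daam1. With limma, Arpc1b was -0.28 for KO against WT in inhibitor, Arpc5l was 0.022 for inhibitor against vehicle in KO, and over line sums Arpc1b was -0.64, Arpc2 -0.037 and Arpc4 -0.0031. With library totals as the scaling, Arpc5l was 0.023 for inhibitor against vehicle in KO and Arpc2 -0.017 over line sums. Over line sums Arpc2 was -0.0023 with DESeq2 and -0.041 with upper quartile factors, where Arpc4 was -0.0087. The causes of these reversals were not tested.

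The replicate block was the cell line for the inhibitor comparisons and the interaction, and the bare replicate number, which does not pair WT with KO lines, for the genotype comparisons. With the replicate block, Arpc1b was -0.57 and Arpc2 -0.0075 over line sums, and Arpc1b was 1.67 ± 1.46 for inhibitor against vehicle in KO (edgeR adjusted p of 0.640). The block changed no call.

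When 1 library or line was left out in turn, the following changes reversed. For KO against WT in vehicle the ranges were Actr2 -0.61 to 0.15, Arpc5 -0.19 to 0.043 and Daam1 -0.080 to 0.061. For KO against WT in inhibitor they were Actr2 -0.27 to 0.10, Actr3 -0.26 to 0.12, Arpc1a -0.099 to 0.030, Arpc1b -1.81 to 1.90, Arpc2 -0.16 to 0.21, Arpc3 -0.052 to 0.24, Arpc4 -0.14 to 0.21, Arpc5 -0.10 to 0.61 and Daam1 -0.42 to 0.18. For inhibitor against vehicle in WT they were Actr2 -0.0011 to 0.22, Arpc1a -0.0068 to 0.076, Arpc1b -0.40 to 1.67, Arpc2 -0.028 to 0.14, Arpc3 -0.062 to 0.031, Arpc4 -0.0049 to 0.13 and Daam1 -0.18 to 0.012. In KO they were Actr2 -0.16 to 0.60, Arpc5l -0.099 to 0.015 and Daam1 -0.50 to 0.095. The interaction ranged over Actr2 -0.24 to 0.52, Actr3 -0.19 to 0.20, Arpc2 -0.012 to 0.36, Arpc4 -0.040 to 0.31, Arpc5 -0.016 to 0.69 and Daam1 -0.41 to 0.19. Over line sums they were Actr3 -0.17 to 0.065, Arpc1b -1.75 to 1.03, Arpc2 -0.14 to 0.095, Arpc3 -0.047 to 0.12, Arpc4 -0.092 to 0.11, Arpc5 -0.048 to 0.39, Actr3b -0.24 to 0.053 and Daam1 -0.19 to 0.078. The KO minus WT difference in paralog share ranged from -2.80 to 2.88 points for Arpc1b, -3.55 to 1.81 for Arpc5l and -1.34 to 1.88 for Actr3b.

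The data have limits for these genes. With 3 libraries a group and 3 libraries that stand apart by their markers, 1 of them KO inhibitor line 3, the genotype and inhibitor comparisons of Arpc1b have intervals that span both directions or rest on 1 library. Actr2 had at most 147 counts a library and the length of a short transcript. Arpc1b and Actr3 share sequence with other annotated genes. A gene count does not show which isoform was present.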
